A study of Mus musculus with 18 samples.

Results

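A set of 7 genes of cholesterol synthesis and its control was followed in whole ovaries of newborn to juvenile mice, namely Hmgcs1, Idi1, Fdps, Sqle, Lss, Dhcr7 and Insig1. They were taken by gene symbol, and all 7 were found among the 30172 genes with a deposited value. The ovaries came from wild-type C57BL/6J F1 females, the first-generation offspring of dams fed a high-methionine diet (3% methionine) to raise homocysteine (F1-HHcy) or normal chow (F1-Control). Dams ate the diet from before mating through pregnancy and nursing, for 4 weeks before mating per the labels and longer per the study's methods, while the sires ate normal chow and the pups were not treated directly. Ovaries were taken at postnatal day 3, 7 or 21 (Pd3, Pd7, Pd21). Each of the 6 groups of diet and age had 3 RNA-seq libraries, which makes 18. Pd3 and Pd7 form batch 1 of the labels and Pd21 forms batch 2, so each comparison of diets lay within 1 batch. Whether a library held 1 pup or several is not given in the sources used here, so p-values measure the spread between these libraries.

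Cells build cholesterol from acetyl-CoA through the mevalonate pathway, which ends in farnesyl diphosphate, and then through squalene and lanosterol in the sterol branch. When sterols are scarce in the endoplasmic reticulum, SCAP carries the SREBP transcription factors to the Golgi for cleavage, and the freed factors switch on most genes of synthesis together with Insig1. When sterols are plentiful, INSIG proteins hold SCAP in the endoplasmic reticulum, which makes Insig1 both a target and a brake of the pathway. In the ovary, cholesterol is the substrate of steroid hormones in theca and granulosa cells, and oocytes are known to obtain much of their cholesterol from the surrounding granulosa cells.

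By role, Hmgcs1 (HMG-CoA synthase), Idi1 (isopentenyl diphosphate isomerase) and Fdps (farnesyl diphosphate synthase) belong to the mevalonate pathway. Sqle (squalene epoxidase), Lss (lanosterol synthase) and Dhcr7, which encodes the reductase of the last step to cholesterol, belong to the sterol branch. Insig1 encodes a protein that retains SCAP in the endoplasmic reticulum. None of the 7 encodes a receptor or carrier that takes up cholesterol, so uptake was described from a separate list of genes. In the mouse genome GRCm38 (GENCODE vM21), Insig1 lies at chr5:28071363-28078662 and Hmgcs1 at chr13:119690379-119708260, both on the plus strand. Idi1 lies on the same chromosome as Hmgcs1, at chr13:8885501-8892451. Sqle lies at chr15:59315077-59331192, Lss at chr10:76531588-76557138, Dhcr7 at chr7:143823145-143848410 and Fdps, on the minus strand, at chr3:89093588-89101959.

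Since SREBP factors act through promoters, promoters are shown for Insig1, the member called at Pd7, and for Hmgcs1, the member with the lowest p between the diets at Pd3. Of the 7 genes, 5 had a RefSeq promoter (GRCm38.p6), and no entry was used for Sqle and Fdps. The stretches shown are chr13:119690101-119690350 for Hmgcs1 and chr5:28071162-28071362 for Insig1, both on the plus strand and both ending before the annotated start of the gene. Capitals mark TCACNCCAC, a core of the sterol regulatory element, CCAAT, the core letters of the NF-Y motif, and GGGCGG, the core of the Sp1 motif, each on either strand.
Hmgcs1: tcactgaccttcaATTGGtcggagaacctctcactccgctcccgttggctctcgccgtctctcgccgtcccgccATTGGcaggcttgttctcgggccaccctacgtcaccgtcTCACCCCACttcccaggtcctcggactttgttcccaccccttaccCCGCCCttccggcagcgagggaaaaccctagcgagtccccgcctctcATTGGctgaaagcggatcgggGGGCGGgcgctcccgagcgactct
Insig1: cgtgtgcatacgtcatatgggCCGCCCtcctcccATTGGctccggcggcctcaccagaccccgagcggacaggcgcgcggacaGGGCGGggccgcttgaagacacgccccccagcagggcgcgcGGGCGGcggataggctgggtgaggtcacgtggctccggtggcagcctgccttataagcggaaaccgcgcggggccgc
Within the 250 bases before the RefSeq start, TCACNCCAC was found in Hmgcs1 alone among the 5 genes, beginning 137 bases before the start. It was present in 1.05% of all 32851 promoter entries. Hmgcs1 also held CCAAT at 3 places and GGGCGG at 2, and Insig1 held CCAAT at 1 place and GGGCGG at 3. CCAAT occurred in 33.8% and GGGCGG in 32.7% of all entries. These matches describe letters in these windows and do not mark sites of binding.

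Expression is given as FPKM (fragments counted per gene, scaled by gene length and by the library's total), a measure per length that allows levels of different genes to be compared. Library totals ranged from 33630641 to 39399281 fragments. Averaged over the 18 libraries, Insig1 was the most abundant at 32.0 FPKM, followed by Fdps at 31.5 FPKM and Hmgcs1 at 30.6 FPKM, which lay close together. Sqle averaged 12.5 FPKM, Dhcr7 4.85 FPKM, Lss 2.64 FPKM and Idi1 2.08 FPKM. This order depends on the gene lengths behind the values, and is uncertain for that reason. They were 2648 bases for Insig1, 1461 for Fdps and 4215 for Hmgcs1, where all annotated exons together hold 3093, 4208 and 4594 bases. The scarcest gene, Idi1, still rested on 119 to 410 fragments per library. Between the lowest and the highest of the 18 libraries, levels differed 1.92-fold for Fdps and 3.60-fold for Sqle, the narrowest and the widest range of the 7. Each marker fixed for the ovary was above 0 in some libraries, though Insl3 of steroid-producing cells was at 0 in others. The means were 371 FPKM for Zp3 of the oocyte, 310 FPKM for Inha of granulosa cells and 608 FPKM for Hsd3b1 of steroid-producing cells.

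**Figure D1:**
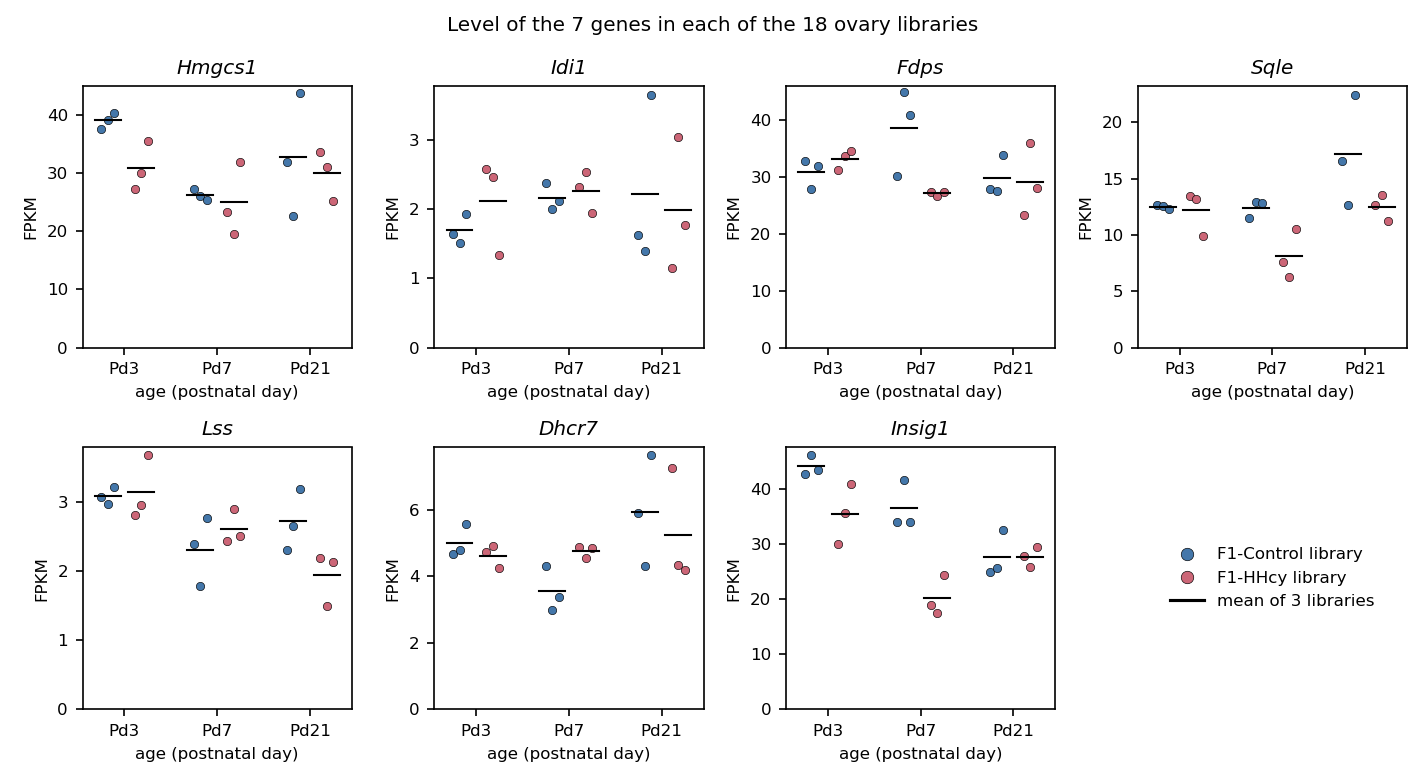
Level of each of the 7 genes (y axis, FPKM, starting at 0) by age (x axis) in F1-Control (blue) and F1-HHcy (red) libraries, with 1 point per library and a line at the mean of 3. Insig1 at Pd7 is between 17.5 and 24.3 FPKM in F1-HHcy and between 34.0 and 41.8 FPKM in F1-Control libraries.

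At Pd7, whether the diet of the dam altered these genes was asked with 3 libraries against 3. Insig1, the brake on SREBP processing, was the 1 member that passed the test. Its level was 34.1, 41.8 and 34.0 FPKM in the F1-Control libraries and 19.0, 17.5 and 24.3 FPKM in the F1-HHcy libraries. Every F1-HHcy library lay below every F1-Control library, and replicate 3 was the highest of the F1-HHcy libraries. The mean fell from 36.6 ± 4.45 to 20.3 ± 3.59 FPKM (SD, n = 3 each). On the log2(FPKM + 1) scale the change was -0.83 (SE 0.16, 95% confidence interval -1.19 to -0.47), with an adjusted p of 0.0126 in limma with Benjamini-Hochberg adjustment over 13299 genes. The call rested on single libraries. With F1-HHcy replicate 1 left out the adjusted p was 0.0561, with replicate 2 left out it was 0.0541, and with genes of low level kept in the test it was 0.0710, so the call was lost each time, whereas the change was between -0.96 and -0.73 without any 1 library. In a bulk sample, fewer cells that express a gene and less of its RNA per cell cannot be told apart.

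Of the 7 members, 1 was thus called at Pd7, and it was lower. Of all genes tested at Pd7, 11.9% were called in either direction and 5.98% were called lower, so a count of 1 in 7 is near the background and is not a result about the members as a group.

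Among the enzymes at Pd7, Sqle, which makes the epoxide that is closed to lanosterol, came next. Its level was 11.5, 13.0 and 12.8 FPKM in F1-Control and 7.56, 6.22 and 10.5 FPKM in F1-HHcy libraries. The groups did not overlap, and F1-HHcy replicate 3 was again nearest to the controls. The log2 fold change was -0.59 (SE 0.18, 95% confidence interval -0.99 to -0.18), and the limma adjusted p of 0.0639 missed the threshold. Without F1-HHcy replicate 3 the change was -0.77 with an adjusted p of 0.0335, and without any 1 of the other 5 libraries it was between -0.64 and -0.43 with adjusted p-values from 0.0873 to 0.227.

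Fdps, which makes the last product shared by sterols and other isoprenoids, measured 30.2, 44.9 and 40.8 FPKM in F1-Control and 27.3, 26.6 and 27.4 FPKM in F1-HHcy libraries. The F1-HHcy libraries lay close together below all controls, of which replicate 1 was the lowest. The log2 fold change was -0.48 (SE 0.16) with a limma adjusted p of 0.0829. Without F1-Control replicate 1 it was -0.64 with an adjusted p of 0.0400, and without any 1 of the other 5 libraries it was between -0.48 and -0.36 with adjusted p-values from 0.134 to 0.220.

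Dhcr7 differed the other way. It measured 4.29, 2.97 and 3.36 FPKM in F1-Control and 4.87, 4.55 and 4.86 FPKM in F1-HHcy libraries, with no overlap and a narrow gap between F1-Control replicate 1 and the F1-HHcy libraries. The log2 fold change was 0.35 (SE 0.16), with a limma adjusted p of 0.158. For Hmgcs1, Lss and Idi1 the diets overlapped at Pd7, and their log2 fold changes were -0.10, 0.14 and 0.04 (SE 0.15 to 0.18).

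At Pd7 the diets thus did not overlap for 4 of the 7 members, 3 lower and 1 higher in F1-HHcy, where 39.0% of all genes tested did not overlap. An unadjusted p under 0.05 was found for the same 4 members and for 31.5% of all genes. The titles of the study's volcano plots ask for a log2 difference beyond 0.58 in either direction and an unadjusted p below 0.05. This criterion was applied here to the limma fit on log2(FPKM + 1), so its counts are not those of the study. By it 2 members passed, Insig1 and Sqle, against 16.4% of all genes. The median log2 fold change of the 7 members was -0.10 and that of all genes was -0.0015.

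**Figure D2:**
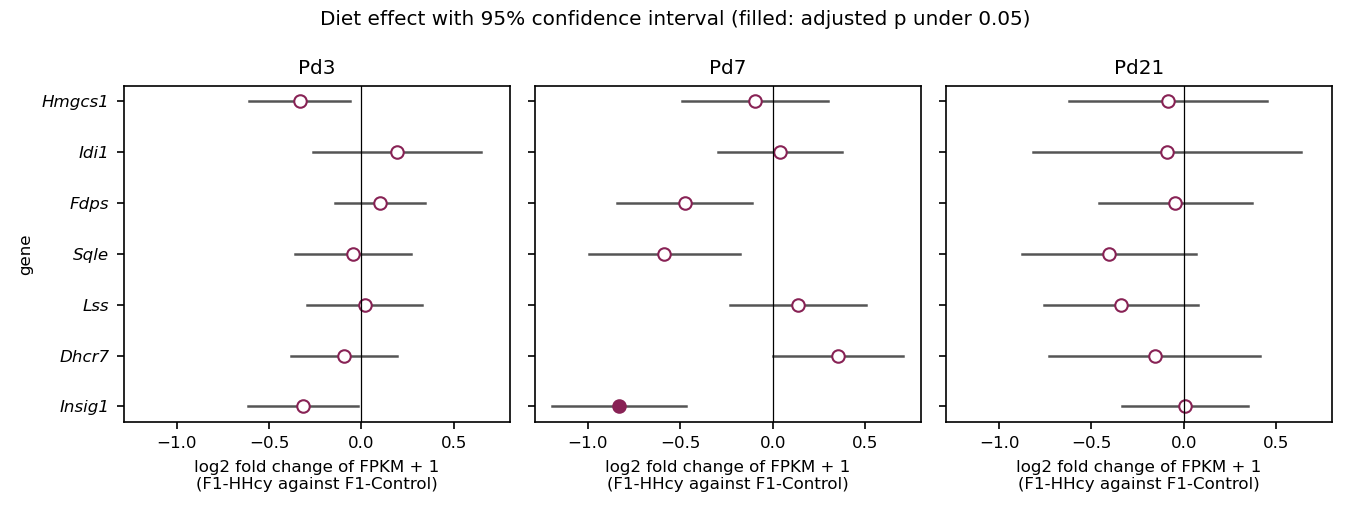
Log2 fold change of FPKM + 1 between F1-HHcy and F1-Control (x axis) for each gene (y axis) at Pd3, Pd7 and Pd21, with 95% confidence intervals from limma. The 1 filled point, Insig1 at Pd7 with -0.83, had an adjusted p under 0.05.

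At Pd3, 0 of the 7 members passed the adjusted threshold in limma, where 3.07% of 13277 genes did, and 0 passed in limma-voom on fragment numbers. At an unadjusted p under 0.05, there were 2 members, Hmgcs1 and Insig1, an early enzyme of the mevalonate pathway and the brake on SREBP processing. Of all genes, 22.4% had such a p, so this count is near the background. Hmgcs1 measured 37.6, 39.2 and 40.4 FPKM in F1-Control and 27.3, 30.0 and 35.4 FPKM in F1-HHcy libraries. Insig1 measured 42.8, 46.2 and 43.5 FPKM in F1-Control and 30.0, 35.6 and 40.9 FPKM in F1-HHcy libraries. For both genes all F1-HHcy libraries lay below all F1-Control libraries, and F1-HHcy replicate 3 came nearest to the controls. The log2 fold change of Hmgcs1 was -0.34 (SE 0.12) with an adjusted p of 0.155, and that of Insig1 was -0.32 (SE 0.13) with an adjusted p of 0.199. Without any 1 of the other 5 libraries the adjusted p was between 0.275 and 0.374 for Hmgcs1 and between 0.293 and 0.458 for Insig1. Without F1-HHcy replicate 3 it was 0.0195 for Hmgcs1 and 0.0299 for Insig1, and 2937 genes were called among all those tested, beside 408 with all 6 libraries.

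The other 5 members overlapped between the diets at Pd3, with log2 fold changes from -0.09 for Dhcr7 to 0.19 for Idi1. Groups that did not overlap were thus found for 2 of 7 members and for 27.9% of all genes. By the study's volcano criterion 0 members passed, against 9.74% of all genes. The median log2 fold change was -0.05 over the members and -0.03 over all genes.

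At Pd21, 0 of 7 members passed in limma, 0 passed in limma-voom, and 0 had an unadjusted p under 0.05. Of 13350 genes, 2.23% were called and 6.85% had an unadjusted p under 0.05. Insig1 measured 24.9, 25.6 and 32.6 FPKM in F1-Control and 27.8, 25.8 and 29.5 FPKM in F1-HHcy libraries. The diets overlapped, with a log2 fold change of 0.01 (SE 0.15, 95% confidence interval -0.33 to 0.35). Lss measured 2.31, 2.66 and 3.19 FPKM in F1-Control and 2.19, 1.501 and 2.13 FPKM in F1-HHcy libraries. It was the 1 member of 7 without overlap, against 10.5% of all genes, and its log2 fold change was -0.34 (SE 0.18) with an adjusted p of 0.968. On the log2(FPKM + 1) scale, Sqle had the largest estimate of the 7 at Pd21, -0.40 (SE 0.21, 95% confidence interval -0.88 to 0.07, limma adjusted p = 0.920). It measured 16.57, 12.68 and 22.41 FPKM in F1-Control and 12.66, 13.57 and 11.19 FPKM in F1-HHcy libraries, which overlapped. Its estimate was between -0.59 and -0.21 without any 1 library. Over the alternatives that kept all libraries, the lowest estimate was -0.44 for Sqle and -0.50 for Lss, so this rank depends on the scale. By the volcano criterion 0 members passed, against 5.14% of all genes, and the median log2 fold change was -0.09 over the members and -0.01 over all genes. Over the fits that each left out 1 library, the median of the members was between -0.32 and 0.045.

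At Pd21, 1 library stood high for most members. F1-Control replicate 3 had the highest Hmgcs1 of all 18 libraries at 43.8 FPKM, beside 31.8 and 22.7 FPKM in the other F1-Control libraries. It also had the highest Sqle, the highest Dhcr7 at 7.63 FPKM and the highest Idi1 at 3.66 FPKM. Without it, the log2 fold changes of Hmgcs1, Dhcr7, Fdps and Idi1 at Pd21 turned from below 0 to 0.14, 0.02, 0.05 and 0.21, with 0 members called either way. Other single libraries turned some of them too. Without F1-HHcy replicate 1, Fdps was 0.10 and Idi1 was 0.12, and without F1-HHcy replicate 3, Hmgcs1 was 0.03. The directions of these 4 genes at Pd21 are therefore uncertain.

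From Pd3 to Pd7 in F1-Control ovaries, both in batch 1, 0 of 7 members passed in limma over all 18 libraries, where 11.4% of 14607 genes did. At an unadjusted p under 0.05 there were 2, Hmgcs1 and Dhcr7, a share near the 28.6% of all genes. Hmgcs1 had a log2 change of -0.56 (SE 0.20) with an adjusted p of 0.0779, and its F1-Control libraries at Pd7, between 25.4 and 27.2 FPKM, lay below those at Pd3, between 37.6 and 40.4 FPKM. The change of Hmgcs1 passed the threshold when F1-Control Pd21 replicate 2 or replicate 3 was left out, with an adjusted p of 0.0449 and 0.0446, and it did not without any 1 of the other 16 libraries, with adjusted p-values from 0.0594 to 0.182. Dhcr7 had a change of -0.41 (SE 0.19, adjusted p = 0.165), and Insig1 one of -0.27 (SE 0.15, adjusted p = 0.233). Pd21 was not tested against the other days, since age and batch cannot be told apart there.

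In order of level, F1-HHcy Pd7 was the lowest of the 6 groups for Insig1, at 20.3 ± 3.59 FPKM, and its libraries did not overlap with those of the next group, F1-HHcy Pd21 at 27.7 ± 1.81 FPKM. The 4 groups in the middle overlapped from each to the next, and F1-Control Pd3, at 44.2 ± 1.75 FPKM, stood above them without overlap. F1-HHcy Pd7 was also the lowest group for Hmgcs1, Sqle and Fdps, where it overlapped with the next group each time.

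Whether the diet effect differed between ages was tested as the difference of the log2 fold changes. Between Pd7 and Pd3, 0 of 7 members passed in limma, and 0.411% of 14607 genes did. The difference was -0.51 (SE 0.21, adjusted p = 0.311) for Insig1 and -0.58 (SE 0.22, adjusted p = 0.279) for Fdps, the 2 members with an unadjusted p under 0.05, which 13.8% of all genes had. The larger change of Insig1 at Pd7 than at Pd3 was therefore not shown to differ between these ages. Between Pd21 and Pd7, 1 of 7 members passed, and 3.89% of all genes did, while 2 members and 19.4% of all genes had an unadjusted p under 0.05. The member that passed was Insig1, with a difference of 0.84 (SE 0.21, 95% confidence interval 0.40 to 1.27, limma adjusted p = 0.0302), as the change of -0.83 at Pd7 stood beside one of 0.01 at Pd21. Without any 1 of 6 libraries in turn, which were F1-Control Pd7 replicate 2, F1-HHcy Pd7 replicates 1 and 2, F1-Control Pd21 replicates 1 and 2 and F1-HHcy Pd21 replicate 3, its adjusted p was between 0.0596 and 0.0925. Age and batch cannot be told apart in this difference.

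The remaining genes of the pathway were read from 4 lists. Their counts at an unadjusted p under 0.05 stand against 22.4%, 31.5% and 6.85% of all genes at Pd3, Pd7 and Pd21. Of 5 other genes of the mevalonate pathway, 0 were called by limma or limma-voom at Pd3, Pd7 or Pd21, with 2, 2 and 0 at an unadjusted p under 0.05. The most abundant were Acat2 at a mean of 9.91 FPKM over the 18 libraries, Ggps1 at 7.72 FPKM and Mvd at 7.08 FPKM, and the median log2 fold change of the list at Pd7 was -0.22. Of 10 other genes of the sterol branch, led by Fdft1 at 16.7 FPKM, Msmo1 at 15.6 FPKM and Lbr at 13.6 FPKM, 0 were called by either tool on any of the 3 days, with 1, 2 and 1 at an unadjusted p under 0.05. At Pd7 their estimates were split, 5 above and 5 below 0, with a median of -0.02. Of 6 other genes of sterol sensing, led by Mbtps1 at 55.9 FPKM, Scap at 35.5 FPKM and Srebf2 at 10.3 FPKM, 0 were called by either tool, with 1, 0 and 1 at an unadjusted p under 0.05. At Pd7 all 6 estimates were above 0, between 0.15 and 0.25, while that of Insig1 was below 0. Without F1-HHcy replicate 3 at Pd3, 1 gene of the mevalonate list, 3 of the sterol branch and 1 of sterol sensing were called, and without F1-Control replicate 3 at Pd7, 1 of the sterol branch was.

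Calls outside the 7 members came from uptake, transport and storage. Of 9 genes, led by Soat1 at 64.8 FPKM, Npc2 at 50.6 FPKM and Npc1 at 16.3 FPKM, 8 were tested and 2 rose at Pd7, where 5.88% of all genes were called higher, while 0 were called by limma or limma-voom at Pd3 and at Pd21. At an unadjusted p under 0.05 there were 4, 4 and 0 at Pd3, Pd7 and Pd21. At Pd7 the estimates were split, 4 above and 4 below 0. The 2 uncalled genes with such a p at Pd7 were Soat1, at 0.55 (SE 0.19, limma adjusted p = 0.0887), and Stard4, at -0.45 (SE 0.17, adjusted p = 0.104). Every F1-HHcy library was higher for Soat1 and lower for Stard4. Of the 8 tested genes, 4 were higher and 1 was lower in every F1-HHcy library at Pd7, where 39.0% of all genes did not overlap. At Pd3, 4 were higher and 0 were lower in every F1-HHcy library, where 27.9% of all genes did not overlap. Stard4 was chosen after its values were seen. At Pd3, 5 were called without F1-HHcy replicate 3, 4 higher and 1 lower. With all 18 libraries in 1 model 2 were called higher at Pd3, and with median-ratio scaling 1 was. The untested gene was Lrp8, with at most 0.456 FPKM in any library. The median log2 fold change of the tested genes was 0.13 at Pd7 and 0.23 at Pd3.

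Abca1, which exports cholesterol to lipoproteins, measured 15.0, 12.1 and 13.1 FPKM in F1-Control and 21.6, 21.6 and 23.8 FPKM in F1-HHcy libraries at Pd7. The groups were well apart, and the log2 fold change was 0.70 (SE 0.14, limma adjusted p = 0.0131). The call was lost without F1-HHcy replicate 1 (adjusted p = 0.0552) and with genes of low level kept (adjusted p = 0.0566). At Pd3 Abca1 measured 9.26, 8.20 and 10.2 FPKM in F1-Control and 13.2, 13.9 and 17.4 FPKM in F1-HHcy libraries, again without overlap, with an adjusted p of 0.0600.

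Vldlr, a receptor that takes up lipoproteins, measured 2.21, 1.99 and 5.21 FPKM in F1-Control and 6.43, 7.50 and 6.19 FPKM in F1-HHcy libraries at Pd7. F1-Control replicate 3 was far above the other controls and below all F1-HHcy libraries. The log2 fold change was 0.98 (SE 0.26, limma adjusted p = 0.0392). The call was lost without any 1 library other than F1-Control replicate 3, with adjusted p-values from 0.0835 to 0.119, and with genes of low level kept (adjusted p = 0.148). At Pd3 Vldlr measured 0.971, 0.882 and 1.25 FPKM in F1-Control and 4.37, 2.96 and 1.49 FPKM in F1-HHcy libraries. These groups did not overlap, with a log2 fold change of 0.89 (SE 0.27, limma adjusted p = 0.117). The F1-HHcy libraries alone sufficed to pass the filter there. At Pd21 the diets overlapped, with a log2 fold change of -0.18 (SE 0.16).

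With age, from Pd3 to Pd7 in F1-Control ovaries, 4 of the 8 tested genes of uptake, transport and storage passed in limma. Of these, 3 were higher and 1 was lower, beside 11.4% of all genes called. An unadjusted p under 0.05 was found for 6 of the 8, beside 28.6% of all genes. Vldlr rose by a log2 change of 0.95 (SE 0.26, adjusted p = 0.0300) and Npc2 by 0.51 (SE 0.14, adjusted p = 0.0281), while Npc1 fell, with a change of -0.57 (SE 0.16, adjusted p = 0.0330). The third higher gene was Lipa, chosen after its values were seen, at 0.44 (SE 0.14, adjusted p = 0.0467). The count was 0 without any 1 of the F1-Control Pd3 libraries and without F1-Control Pd7 replicate 3, and it was 1 with genes of low level kept. In the other 3 lists 0 genes passed for age, with 2 of the mevalonate pathway, 2 of the sterol branch and 1 of sterol sensing at an unadjusted p under 0.05. Limma-voom was not run for age. Without F1-HHcy Pd3 replicate 3 or F1-HHcy Pd21 replicate 2, 2 genes of the sterol branch were called, and without F1-HHcy Pd3 replicate 1 or F1-HHcy Pd21 replicate 1, 1 was. With a pseudocount of 0.1 and with median-ratio scaling, 1 gene of the sterol branch was called higher as well.

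**Figure D3:**
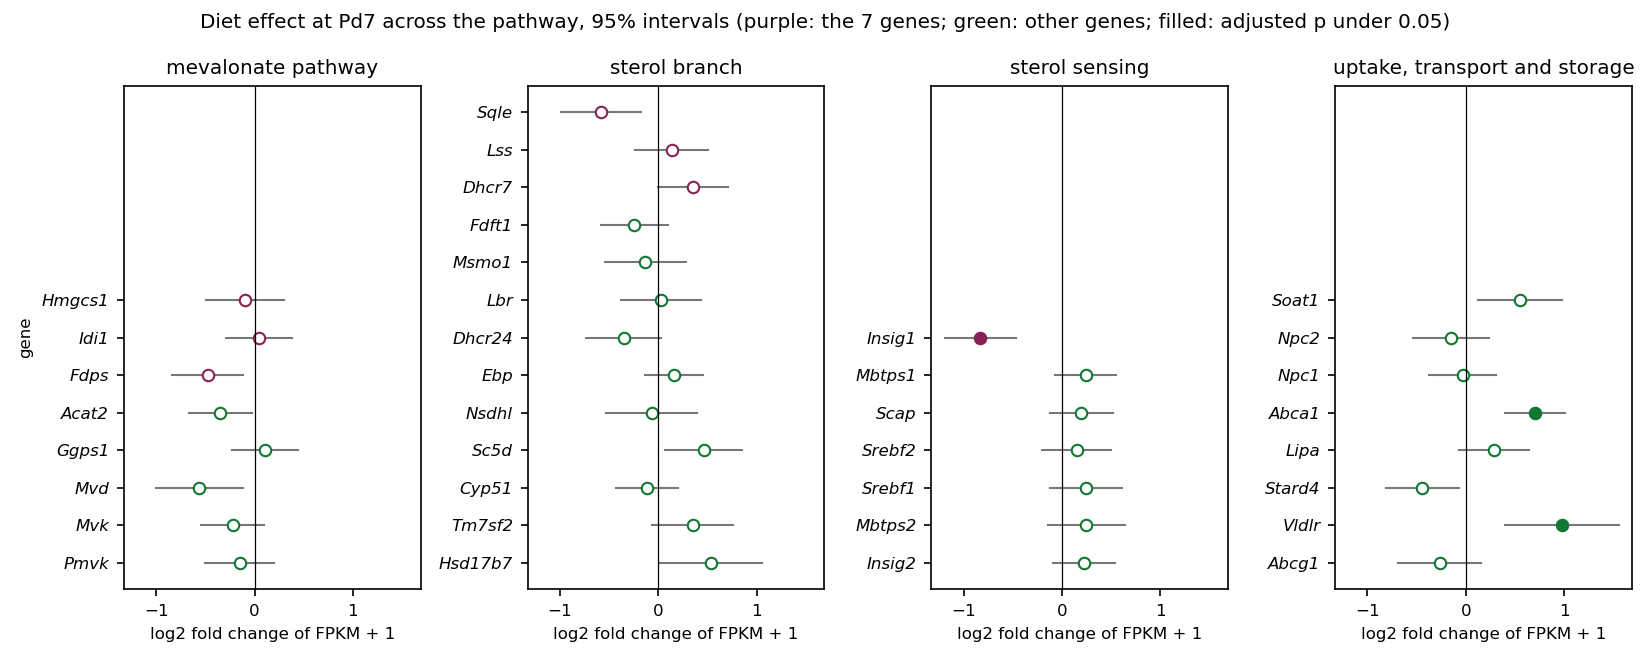
Log2 fold change of FPKM + 1 at Pd7 between F1-HHcy and F1-Control (x axis), with 95% confidence intervals, for the 7 genes (purple) and the other genes of each list (green). Filled points passed an adjusted p under 0.05, which are Insig1 at -0.83, Abca1 at 0.70 and Vldlr at 0.98.

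Markers of several cell types also differed between the diets. Their counts of called genes stand against 3.07%, 11.9% and 2.23% of all genes at Pd3, Pd7 and Pd21. At Pd7, 5.88% of all genes were called higher and 5.98% lower. The shares with an unadjusted p under 0.05 were 22.4%, 31.5% and 6.85%, and those without overlap were 27.9%, 39.0% and 10.5%. At Pd7, 6 of 6 markers of theca and steroid-producing cells rose. Their summed level was 216, 286 and 449 FPKM in F1-Control and 1162, 1195 and 1136 FPKM in F1-HHcy libraries, with Hsd3b1 the most abundant and Insl3 at 0 in some libraries. A theca marker near 0 in F1-Control libraries could pass the filter through F1-HHcy libraries alone, so nothing is concluded from the count of 6. Of 6 oocyte markers, led by Zp3, 4 fell, and the sum was 650, 1143 and 906 FPKM in F1-Control and 478, 403 and 725 FPKM in F1-HHcy libraries, which overlapped in 1 library of each diet. Of 5 erythroid markers, led by Hbb-bs, 4 were tested and all 4 fell, with sums of 5179, 1439 and 864 FPKM in F1-Control and 269, 470 and 401 FPKM in F1-HHcy libraries. Without F1-Control replicate 2, 3 theca markers and 0 erythroid markers were called, and 0 erythroid markers were called without F1-HHcy replicate 1 or replicate 3. With genes of low level kept in the test, 1 oocyte marker was called at Pd7 and 0 were called in the other 9 marker lists.

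Of 5 granulosa markers, led by Inha, 1 rose at Pd7, with sums of 162, 198 and 408 FPKM in F1-Control and 425, 406 and 713 FPKM in F1-HHcy libraries, which overlapped. The granulosa count was 3 without F1-Control replicate 3 and 0 without any 1 of the other 5 libraries. It was 0 by limma-voom, with a pseudocount of 0.1 and with median-ratio scaling, and 2 with the replicate number as a block. Of 4 adipocyte markers, led by Cfd, 3 were tested and 2 rose. Their sums were 1.32, 1.89 and 3.90 FPKM in F1-Control and 9.05, 9.87 and 15.0 FPKM in F1-HHcy libraries, and Adipoq, Cfd and Lep were at 0 in some libraries. Adipocyte markers could pass the filter through F1-HHcy libraries alone, so nothing is concluded from the count of 2. Of 3 markers of surface and oviduct epithelium, led by Krt19, 1 fell, with sums of 413, 468 and 290 FPKM in F1-Control and 214, 282 and 123 FPKM in F1-HHcy libraries. Another of these 3 markers was higher in every F1-HHcy library, with a log2 fold change of 1.22 that did not pass the adjusted threshold. The summed level of the 4 macrophage markers, led by C1qa, was 27.2, 27.0 and 22.5 FPKM in F1-Control and 18.04, 18.5 and 18.2 FPKM in F1-HHcy libraries, and 0 of the 4 passed in limma, with 1 at an unadjusted p under 0.05. None of the 3 endothelial markers led by Cdh5, the 3 smooth muscle markers led by Acta2 and the 2 tested of 4 multiciliated markers led by Foxj1 was called at Pd7 by limma or limma-voom, with 1, 1 and 0 of them at an unadjusted p under 0.05. Without F1-Control replicate 3, 1 macrophage and 2 smooth muscle markers were called. With all 18 libraries in 1 model, 1 macrophage marker was called lower at Pd7. With the replicate number as a block, 1 smooth muscle marker was called higher.

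At Pd3, 5 of 5 erythroid markers fell, 2 of 6 oocyte and 2 of 4 tested granulosa markers rose, and 0 were called in the other 7 lists, of which the adipocyte list had 0 and the theca list 2 of 6 genes tested. Limma-voom also called 0 in these lists, and an unadjusted p under 0.05 was found for 3 of 3 endothelial, 3 of 4 macrophage and 1 of 3 smooth muscle markers. All 3 endothelial and 3 of 4 macrophage markers were higher in every F1-HHcy library at Pd3, where 27.9% of all genes did not overlap. All 3 endothelial markers passed the study's volcano criterion, beside 9.74% of all genes, and 2 of them were called with all 18 libraries in 1 model. The erythroid count at Pd3 was 0 without F1-Control replicate 1 or replicate 2. The other 4 oocyte markers had estimates below 0, 2 of them with every F1-HHcy library lower, and the median of the list was -0.39, with values from -1.27 to 1.85. Without F1-HHcy replicate 3, 2 oocyte markers were called higher and 4 lower, and 0 were called without any 1 of the other 5 libraries, and the granulosa count was 0 without F1-HHcy replicate 2 or any 1 F1-Control library and 1 without F1-HHcy replicate 1. With genes of low level kept, and also with the replicate number as a block, 0 erythroid, 0 oocyte and 0 granulosa markers were called at Pd3. Without F1-HHcy replicate 3, 3 endothelial, 3 smooth muscle, 1 theca, 1 macrophage and 1 surface marker were called as well. At Pd21, 4 of 4 multiciliated markers and 1 of 3 markers of surface and oviduct epithelium fell, and 0 were called in the other 8 lists by limma or limma-voom, where 2 adipocyte markers and 1 smooth muscle marker had an unadjusted p under 0.05. All 3 surface markers had such a p and were lower in every F1-HHcy library. The counts of 4 and 1 held without any 1 library, but both were 0 with genes of low level kept. The surface count was 2 with the replicate number as a block and with all 18 libraries in 1 model. Multiciliated sums at Pd21 were between 34.6 and 134 FPKM in F1-Control and between 1.76 and 2.69 FPKM in F1-HHcy libraries. These markers could pass the filter through F1-Control libraries alone, so nothing is concluded from the count of 4. Without F1-HHcy replicate 1 at Pd21, 1 adipocyte marker was called. The part of these cell types in the levels of the 7 members was not tested.

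How the members varied among themselves was described by the correlation of log2(FPKM + 1) after the mean of each group was taken off. Over the 12 libraries of batch 1, the 21 pairs of members had a median Pearson r of 0.04, and 12 pairs were above 0. The highest was 0.82 between Hmgcs1 and Insig1, and the lowest was -0.77 between Idi1 and Insig1. Over the 6 libraries of Pd21 the median was 0.52, 18 pairs were above 0, and Hmgcs1 with Sqle reached 0.97. F1-Control replicate 3 of Pd21, high for most members, is 1 of these 6 libraries. All pairs share the libraries and their depth, so these values describe the libraries at hand.

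**Figure D4:**
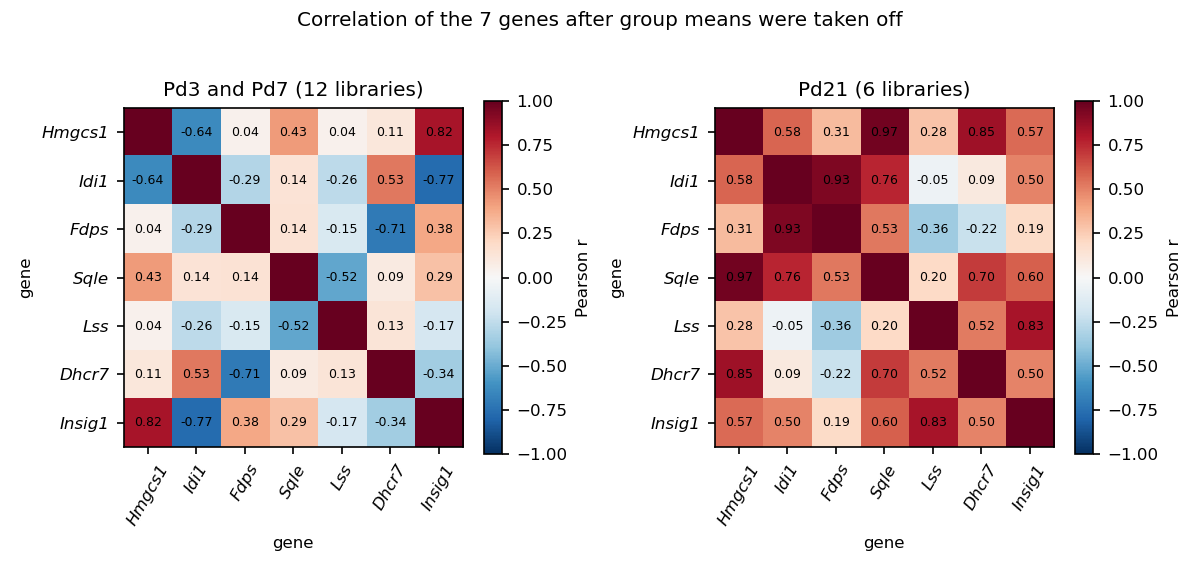
Pearson correlation between pairs of the 7 genes (both axes) after group means of log2(FPKM + 1) were taken off, from -1 (blue) to 1 (red), over the 12 libraries of Pd3 and Pd7 and the 6 of Pd21. Most pairs at Pd21 are above 0, with a median of 0.52, while those at Pd3 and Pd7 are mixed, with a median of 0.04.

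Genes outside the members were ranked by the Pearson correlation of their log2(FPKM + 1) with the mean z-score of the 7 members, among 14607 genes. Over the 18 libraries the 5 highest were Dpp3 (0.88), Hs3st1 (0.85), Nsg2 (0.85), Lad1 (0.84) and Rnf128 (0.84). Within batch 1 their values were 0.89, 0.80, 0.68, 0.77 and 0.76, and within the 6 libraries of batch 2 they were 0.89, 0.90, 0.97, 0.93 and 0.86. After group means were taken off, the 5 highest were Dpp3 (0.92), Fitm2 (0.91), Sec23b (0.90), Calb1 (0.90) and Cfi (0.89). Dpp3, a dipeptidyl peptidase, was named by both rankings. With group means kept, Fitm2 had 0.02 within batch 1 and 0.91 within batch 2, and Calb1 had -0.15 and 0.97. Of the 5 genes named over the 18 libraries, 0 were among the 5 highest of batch 1 alone.

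Some values rest on sequence that other genes share. Among annotated transcripts, 8 other genes aligned to Fdps with at least 90% identity over at least 100 bases. Among them were Gm43738, annotated as protein-coding, with 100% over 929 bases, and the processed pseudogene Gm3571 with 98.9% over 1062 bases. For Idi1 there were 5, with the processed pseudogene Gm13502 at 100% over 684 bases. None of these genes had a value of its own, and fragments of Fdps and Idi1 could be lost or gained through them, so both levels are uncertain. Insig1 shared 189 bases with 1 processed pseudogene, and Sqle and Dhcr7 had no such match. Hmgcs1 and Lss each overlapped an antisense gene, Gm48342 and 4930483K19Rik, whose fragments cannot be told apart unless counting used the strand. Of these antisense genes, 4930483K19Rik had a value of its own, whereas Gm48342 had none.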

How the data were processed

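Total RNA of whole ovaries was sequenced from stranded poly-A libraries. The files deposited hold a normalized expression value for every symbol, read here as FPKM because a single length for each gene made whole fragments of the values of 27292 of 27294 genes (tolerance 0.02 of a fragment or 3e-08 of the value). The submitters' processing notes name FastQC 0.11.9, Trimmomatic 0.39, STAR 2.7.9a, featureCounts 2.0.1, DESeq2 1.36.0 and GRCm38. The members and lists were chosen with earlier results of these data known.

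Diets were compared per day with limma 3.58.1 (trend on the mean, R 4.3.3) on log2(FPKM + 1), which understates changes of low genes, for genes that reached 1 FPKM in 3 or more libraries, and calls had a Benjamini-Hochberg adjusted p under 0.05. Age and the differences of diet effects were contrasts in 1 model of the 18 libraries. A two-sided exact permutation test of 3 against 3 libraries cannot give a p below 0.1. Named genes were all members, the genes called in a diet comparison and the 3 most abundant of each pathway list, the most abundant gene and genes at 0 of each of 10 marker lists, and the 5 genes most like the members. Alternatives were a pseudocount of 0.1, no filter, 1 model of 18 libraries, the replicate number as a block, median-ratio scaling, limma-voom on recovered fragments, the criterion in the titles of the study's volcano plots and each library left out. Transcripts were aligned with blastn 2.17.0, and figures were drawn with matplotlib 3.10.9 under Python 3.11.15, from tables made with pandas 2.3.3 and numpy 2.4.6. All 18 libraries were used.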

Additional observations from a re-analysis of the deposited data

Results flagged for a closer look

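The diet effect on Insig1 differed between Pd21 and Pd7 by the test of the difference itself, with 0.84 on the log2 scale (SE 0.21, limma adjusted p = 0.0302). It was -0.83 at Pd7 and 0.01 at Pd21. Since Pd21 is the only day of its batch, age and batch cannot be told apart in this difference. Over the 18 fits that each left out 1 library, the difference was between 0.74 and 0.97 with adjusted p-values from 0.0117 to 0.0925.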

How the results depend on the processing

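With each library left out in turn, the number of members called was 0 to 2 at Pd3, 0 to 2 at Pd7 and 0 at Pd21 for diet, 0 to 1 for age, 0 for the difference between Pd7 and Pd3, and 0 to 1 for that between Pd21 and Pd7. The median log2 fold change of the members was -0.11 to -0.029 at Pd3, -0.28 to -0.017 at Pd7 and -0.32 to 0.045 at Pd21. At Pd7, 0 members were called without the filter on low values, and 2 by the study's volcano criterion.

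The direction of these uncalled members turned in some of those fits. For diet at Pd3 the lowest and highest values were -0.12 and 0.085 for Sqle and -0.072 and 0.076 for Lss. At Pd7 they were -0.28 and 0.059 for Hmgcs1 and -0.017 and 0.11 for Idi1. At Pd21 they were -0.32 and 0.14 for Hmgcs1, -0.37 and 0.015 for Dhcr7, -0.20 and 0.096 for Fdps, -0.33 and 0.21 for Idi1 and -0.061 and 0.13 for Insig1. For age they were -0.040 and 0.041 for Sqle. For the difference between Pd7 and Pd3 they were -0.0021 and 0.22 for Lss. For that between Pd21 and Pd7 they were -0.22 and 0.24 for Hmgcs1, -0.0083 and 0.38 for Sqle and -0.38 and 0.16 for Idi1. With median-ratio scaling Fdps at Pd21 was 0.011 and Sqle for age was 0.055, each reversed. The cause was not tested.

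With the replicate number as a replicate block, 0, 1 and 0 members were called at Pd3, Pd7 and Pd21, as without it. Among all genes, 1, 1874 and 345 were called with it, against 408, 1577 and 298. The count at Pd3 was 0 to 2937 with a library left out, 0 without the filter and 881 with all 18 libraries in 1 model, and the other counts over all genes also moved by more than 1.5 times with 1 library left out. They were 626 to 1949 at Pd7, 136 to 385 at Pd21, 456 to 2255 for age, 10 to 265 for the difference between Pd7 and Pd3 and 362 to 1169 for that between Pd21 and Pd7, so all shares of called genes given as background are uncertain. Without the filter, 91 genes were called at Pd7 and 37 at Pd21. With 3 libraries a group, small changes of scarce genes such as Idi1 and Lss could be missed.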
